A study of Mus musculus with 3 samples.

Results

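Chemokines, interleukins and their receptors were followed in melan-a NRAS61K cells at 3 times of doxycycline treatment. The group was every probe set with a single gene symbol in the platform annotation that begins with Ccl, Cxcl, Ccr, Cxcr or Il followed by a digit. This gave 185 of 34958 probe sets and 119 of 18194 genes, namely 31 chemokines, 15 chemokine receptors, 33 interleukins, 36 interleukin receptor chains and 4 other genes (Il1rn, Il18bp, Il4i1 and the antisense gene Il1bos). Melan-a cells are immortalized mouse melanocytes, and NRAS61K is an activated form of the small GTPase NRAS. All 3 arrays carried the oncogene and received doxycycline at 1 µg/ml, for 6, 14 or 28 days, with 1 array per time. The labels state neither what doxycycline switches in this line nor whether the line is 1 clone. No untreated array was used here.

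Chemokines are small secreted proteins that bind G protein-coupled receptors and direct the migration of leukocytes. Interleukins act through paired receptor chains, many of which signal through JAK kinases and STAT factors, while the IL-1 family signals through MyD88 to NF-kB. In senescent cells many of these secreted proteins belong to the senescence-associated secretory phenotype, and melanocytes and melanoma cells are known to secrete several of them.

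Values were log2 intensities as deposited, with an unknown constant, so a level has meaning only against the background of its array. Genes are described by their distance from background, and those with the highest means were chosen for description. Such distances belong to a probe set and do not rank the RNA amounts of different genes. Background was taken, on each array, at the 90th percentile of 98 probe sets that detect 62 genes of other tissues. It stood at 22.76 on day 6, 22.63 on day 14 and 22.68 on day 28. With 1 array per time there was no spread between cultures and no test, and each difference describes 2 arrays. Where several probe sets detected a gene, the SD of their log2 differences around the gene's mean was 0.30 for the first step (day 6 to 14), 0.25 for the second (day 14 to 28) and 0.32 for the whole course. That SD covers measurement and not culture. Of 8 melanocyte markers, 6 lay above background on every array, including Sox10, Mitf and Dct, while Tyr and Kit lay below it on all 3. Dct (23.83, 29.17 and 28.03), Mlana (24.25, 29.08 and 28.38) and Mitf (23.67, 26.10 and 25.80) were more than 2-fold higher on days 14 and 28 than on day 6. Sox10 rose less (27.62, 28.34 and 28.50). Tyrp1 was highest on day 14 and near its day 6 value again on day 28 (27.58, 29.67 and 27.47). Pmel changed little (23.07, 23.38 and 23.05). The medians of the 8 were 23.75, 27.22 and 26.63. Of 7 fibroblast markers 4, 3 and 4 lay above background. Pdgfra read 23.88, 24.26 and 25.50, Col3a1 25.25, 26.31 and 25.17, and Col1a1 23.97, 23.39 and 23.60. Col1a2 was above background on day 6 only and Dcn on day 28 only. Of 5 keratinocyte markers 2 lay above background on each array, Krt5 and Krt10, and Krt10 is also among the genes that set the background. Of 5 endothelial markers 1 lay above it, Cdh5 at 23.70, 25.85 and 27.93, with Pecam1, Kdr, Tek and Vwf below background on all arrays. The part of these markers in the results was not tested. RNA per cell and the share of cells of a kind cannot be told apart in such samples.

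Most of the 119 genes lay below background. On day 6, 37 genes lay above it (31.1%, against 61.8% of all genes), on day 14 40 genes (33.6% against 62.9%) and on day 28 38 genes (31.9% against 63.3%). By probe set the numbers were 53, 57 and 56 of 185. For each gene the probe set with the highest mean was used. On that basis 44 genes (37.0%) lay above background on at least 1 array, against 65.9% of all genes, and 32 did so on all 3. With any probe set counted there were 46, the further ones being Il16 and Cxcl13. The Cxcl13 probe set concerned read 21.35, 22.20 and 22.74, just above background on day 28. The 44 comprised 17 of 31 chemokines, 3 of 15 chemokine receptors, 7 of 33 interleukins and 17 of 36 interleukin receptor chains. The other 75 genes had medians of 21.06, 21.08 and 21.19 in order of time.

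**Figure D1:**
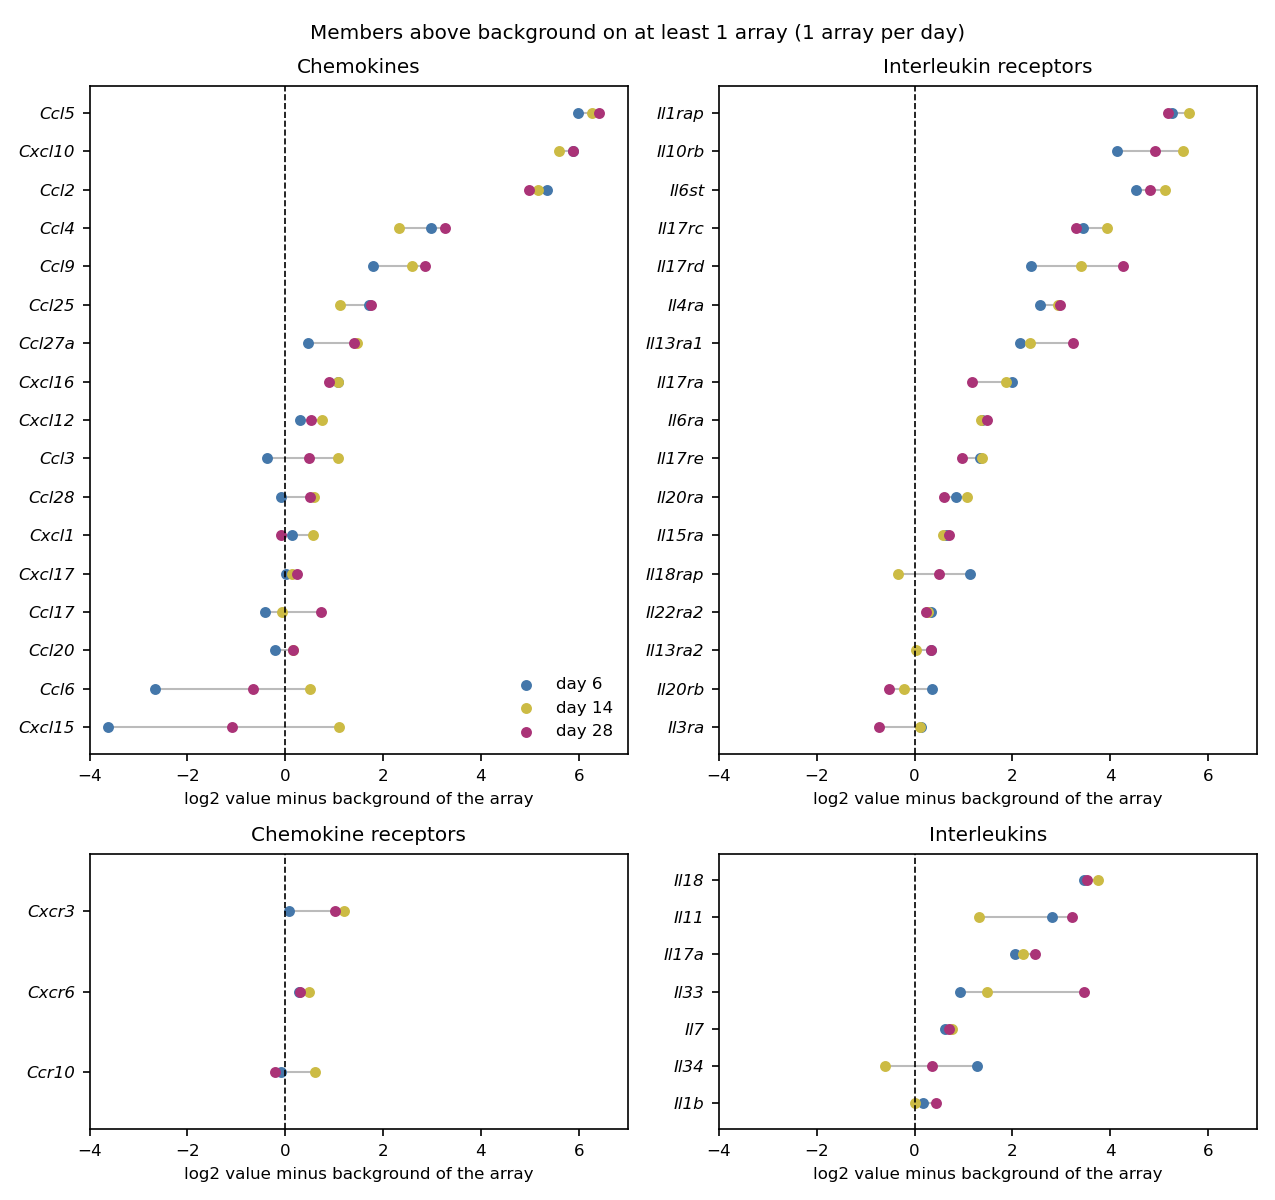
Log2 value minus the background of the same array (x axis) for the 44 genes above background on at least 1 array, one row per gene, with a point for each of days 6, 14 and 28 and a dashed line at background. Rows are ordered by mean value for display only. Ccl5, Cxcl10 and Ccl2 sit far to the right on every array, while Ccl6 and Cxcl15 cross the line on day 14 alone.

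Ccl5, Cxcl10 and Ccl2 lay far above background throughout. Ccl5, the T cell and monocyte attractant RANTES, read 28.74 on day 6, 28.90 on day 14 and 29.10 on day 28. It thus stood 5.98, 6.27 and 6.41 above background, and day 28 was 1.28-fold higher than day 6. Cxcl10, an interferon-inducible attractant of activated T cells, read 28.65, 28.24 and 28.56, with the lowest value on day 14. Ccl2, the monocyte attractant MCP-1, read 28.11, 27.80 and 27.67, so day 28 was 1.35-fold lower than day 6. None of them was 2-fold apart between any pair of arrays, and each was measured by 1 probe set.

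The neighbours of Cxcl10 and Ccl2 on the chromosome lay below background. Cxcl9 and Cxcl11 flank Cxcl10 and encode ligands of the same receptor, Cxcr3. Cxcl9 read 20.92, 20.57 and 20.97, and Cxcl11 22.56, 22.08 and 21.61. Both lay below background on every array. In the chromosome 11 run that begins with Ccl2, the other 5 genes, Ccl7, Ccl11, Ccl12, Ccl8 and Ccl1, were also below background on all arrays. Ccl7 was at 22.35, 21.53 and 21.76. The neighbouring run from Ccl5 to Ccl4 differed, since each of its 5 genes passed background on at least 1 array. Ccl4, the macrophage inflammatory protein MIP-1 beta, read 25.73, 24.96 and 25.94. It was lowest on day 14, and its log2 difference of 0.98 between days 14 and 28 fell just short of 2-fold. Ccl9, a myeloid cell attractant, read 24.55, 25.22 and 25.54, highest on day 28. Its log2 difference from day 6 to day 28 was 0.99 on one probe set and 1.04 on the other.

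**Figure D2:**
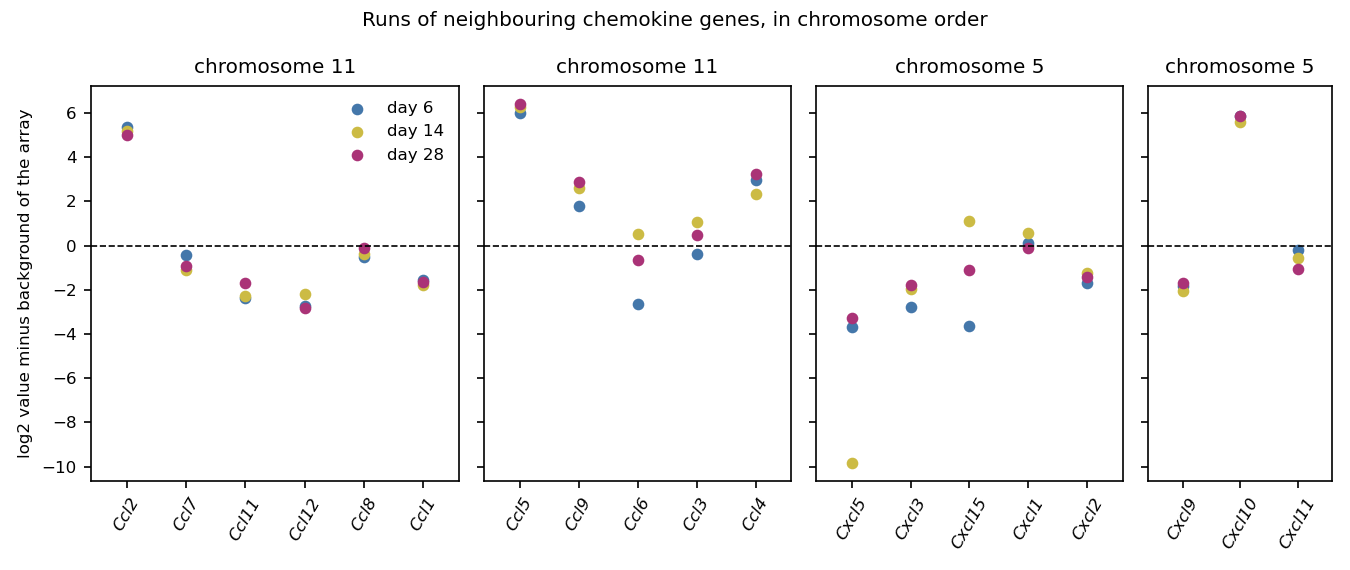
Log2 value minus the background of the same array (y axis) for 4 runs of neighbouring chemokine genes on chromosomes 11 and 5, in chromosome order, with a point per array for days 6, 14 and 28 and a dashed line at background. Ccl2 and Cxcl10 stand above background beside neighbours that lie below it, whereas every gene from Ccl5 to Ccl4 passes it on at least 1 array.

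The 250 bases before the RefSeq start of Cxcl10 (GRCm38.p6, chr5:92348890-92349139, minus strand) are shown because this gene was far above background while both flanking genes were not. Capitals mark matches, on either strand, to 4 motifs. These were the NF-kB consensus, GAAANNGAA (part of the interferon response element), TGANTCA (AP-1) and TTCNNNGAA (STAT).
Cxcl10: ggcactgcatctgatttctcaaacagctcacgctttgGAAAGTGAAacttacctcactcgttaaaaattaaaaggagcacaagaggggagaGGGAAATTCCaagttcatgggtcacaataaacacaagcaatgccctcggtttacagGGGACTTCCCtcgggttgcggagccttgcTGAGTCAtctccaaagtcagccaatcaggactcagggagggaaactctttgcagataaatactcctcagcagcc
From its far end the window held GAAAGTGAA, then GGGAAATTCC and GGGACTTCCC for NF-kB, and TGAGTCA, the motifs not overlapping. Among 32851 windows of this length over all RefSeq genes, 3.9% held the NF-kB consensus, 7.13% the interferon motif, 6.75% the AP-1 motif and 7.02% the STAT motif. Windows were found for 90 of the 119 genes, 107 windows in all. Of these, 12 (11.2%) held the NF-kB consensus, 9 (8.41%) the interferon motif, 19 (17.8%) the AP-1 motif and 12 (11.2%) the STAT motif. In the 39 windows of genes above background and the 68 of genes below it, the shares were 10.3% and 11.8% for NF-kB, 7.69% and 8.82% for the interferon motif, 20.5% and 16.2% for AP-1, and 2.56% and 16.2% for STAT (1 and 11 windows). Genes below background with the NF-kB consensus included Cxcl2, Cxcl3 and Il6. A match is a description of the sequence only.

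Other chemokine genes lay nearer to background. Ccl27a, a skin-homing chemokine, read 23.23, 24.09 and 24.08, and day 28 was 1.80-fold higher than day 6. Near copies of this gene exist, and 2 further probe sets named it together with other genes and were left out. Ccl25 read 24.47, 23.75 and 24.44, with the low value on day 14 on both of its probe sets. Cxcl16, a chemokine made with a membrane anchor, read 23.84, 23.72 and 23.58, and Cxcl12, the ligand of Cxcr4, read 23.06, 23.38 and 23.21. The neutrophil attractant Cxcl1 was at 22.90, 23.20 and 22.59, above background on days 6 and 14 by one probe set, while its other 2 probe sets were below background on every array. Cxcl17, Ccl20 and Ccl28 lay at most 0.58 from background on each array.

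The chemokine genes Ccl3, Cxcl15, Ccl6 and Ccl17 were 2-fold apart between some pair of arrays, all with a reading below background on at least 1 of them. Ccl3, the macrophage inflammatory protein MIP-1 alpha, read 22.39, 23.71 and 23.18. It was below background on day 6 and at least 1.93-fold higher on day 14. Cxcl15, lungkine, a neutrophil attractant known from lung, read 19.14, 23.74 and 21.58, and so exceeded background on day 14 alone. It was at least 1.97-fold higher on day 14 than on day 6 and at least 2.08-fold higher than on day 28. Its other probe set moved alike, at 17.53, 22.25 and 20.84, but stayed below background. Ccl6 read 20.11, 23.14 and 22.02, at least 1.30-fold higher on day 14 than on day 6. Ccl17, a ligand of Ccr4, read 22.34, 22.57 and 23.41, at least 1.57-fold higher on day 28 than on day 6.

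Of the chemokine receptors, 12 of 15 were below background on every array. They included Ccr2, the receptor of Ccl2, at 22.21, 22.00 and 22.29, and the Ccl5 receptors Ccr1 and Ccr3, at no more than 21.50 and 21.61. Cxcr4, the receptor of Cxcl12, read 19.85, 19.70 and 19.51. Cxcr3, the receptor of Cxcl10, was the receptor with a 2-fold difference. It read 22.83, 23.84 and 23.70, and day 14 was 2.01-fold higher than day 6, at a log2 difference of 1.01. The day 6 value was only 0.07 above background. Cxcr6, the receptor of Cxcl16, lay just above background at 23.04, 23.12 and 22.98, and its second probe set lay below it. Ccr10, the receptor of Ccl27a and Ccl28, read 22.68, 23.24 and 22.47, above background on day 14 only.

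Among the interleukins, Il33, Il11 and Il34 were 2-fold apart between arrays. Il33, a nuclear cytokine of the IL-1 family that is released from damaged cells, read 23.70 on day 6, 24.10 on day 14 and 26.15 on day 28. All 3 values lay above background, and the day 28 value stood apart from the earlier pair. Day 28 was 5.48-fold higher than day 6 and 4.14-fold higher than day 14. This was the largest difference among the genes of the group above background on both arrays, and it rests on 1 probe set. Il11, a cytokine that signals through the shared chain Il6st, read 25.56, 23.95 and 25.91. Day 14 was 3.05-fold lower than day 6, and day 28 was 3.88-fold higher than day 14, so the first and last arrays differed by 1.27-fold. Il34, a ligand of the macrophage growth factor receptor Csf1r, read 24.04, 22.03 and 23.03. It was below background on day 14, at least 2.65-fold lower than on day 6, and on day 28 it was just 2-fold lower than on day 6. Both steps of Il11 and Il34 share the day 14 array with opposite signs.

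The windows before the starts of Il11 and Il33 are shown because these were the interleukins with the largest differences above background. RefSeq gives 2 starts for each gene. The second of Il11 (GRCm38.p6, chr7:4778142-4778391, minus strand) and both of Il33 (chr19:29924863-29925112 and chr19:29945540-29945789, plus strand) are printed, with capitals as above.
Il11 start 2: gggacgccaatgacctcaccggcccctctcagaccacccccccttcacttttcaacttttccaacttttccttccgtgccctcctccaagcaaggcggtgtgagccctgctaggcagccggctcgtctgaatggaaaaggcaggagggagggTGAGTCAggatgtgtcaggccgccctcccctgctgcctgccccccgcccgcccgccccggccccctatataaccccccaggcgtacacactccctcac
Il33 start 1: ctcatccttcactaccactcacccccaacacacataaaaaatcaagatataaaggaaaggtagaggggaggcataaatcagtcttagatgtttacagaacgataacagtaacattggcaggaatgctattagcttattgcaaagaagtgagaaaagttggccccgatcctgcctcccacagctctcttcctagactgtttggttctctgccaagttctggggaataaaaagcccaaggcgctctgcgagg
Il33 start 2: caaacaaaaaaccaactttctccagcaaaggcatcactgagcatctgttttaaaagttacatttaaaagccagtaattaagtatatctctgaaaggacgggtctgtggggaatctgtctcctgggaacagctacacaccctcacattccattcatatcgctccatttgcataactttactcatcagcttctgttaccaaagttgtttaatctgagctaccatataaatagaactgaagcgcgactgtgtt
The Il11 window held a single match, the AP-1 motif TGAGTCA. The window before the first Il11 start and both Il33 windows held no match to the 4 motifs, which says only that these letters are not in these 250 bases.

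**Figure D3:**
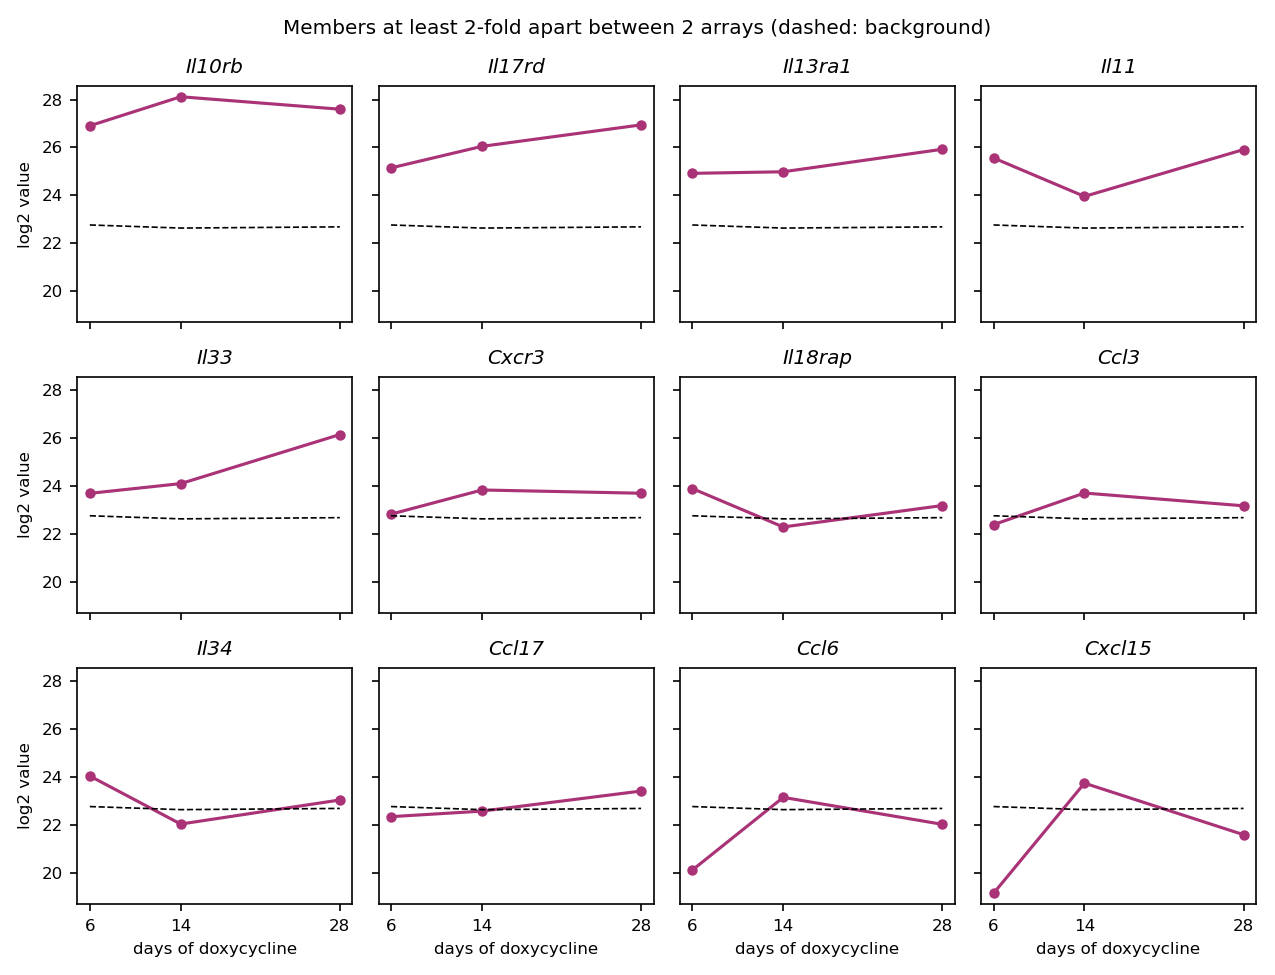
Log2 value (y axis) against days of doxycycline (x axis) for the 12 genes at least 2-fold apart between 2 arrays, one panel per gene and one array per point, with the background as a dashed line. Il33 and Il17rd are highest on day 28, Il11 and Il34 are lowest on day 14, and Ccl6, Cxcl15 and Ccl17 clear the background on 1 array each.

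The other interleukins above background differed by less than 2-fold. Il18, an IL-1 family cytokine released after cleavage by Casp1, read 26.23, 26.39 and 26.21, and its protease gene Casp1 read 26.09, 26.46 and 26.03. Il7, a growth factor of lymphocytes, read 23.38, 23.39 and 23.38. Il1b, a central inflammatory cytokine, lay close to background at 22.93, 22.65 and 23.11. Il17a, known as a T cell product, read 24.81, 24.85 and 25.14 on its 1 probe set. Of the 11 leukocyte and macrophage markers, 6, 5 and 5 lay above background in order of time, with medians of 22.94, 22.56 and 22.63. Ptprc, Cd3e, Itgam, Cd14 and Tyrobp were below it on every array, and Lyz2, Cd68, Csf1r and Adgre1 above it. Cd3e is also among the genes that set the background, so its place below it was largely fixed in advance. Lyz2 read 24.57, 27.17 and 27.31, lowest on day 6, and Cd68 read 25.09, 23.98 and 25.99, lowest on day 14. The part of these markers in the results was not tested.

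Il6 and Il1a, much studied cytokines of senescent cells, were below background on all arrays. Il6 came close to it, at 22.72, 21.52 and 22.62, and Il1a read 20.10, 20.14 and 18.21. The T cell cytokines Il2, Il4, Il5, Il9, Il13 and Il21 were below background too, as were the IL-36 genes under their older names Il1f5, Il1f6, Il1f8 and Il1f9. The inhibitors Il1rn and Il18bp were below it as well. Il16, made as a precursor with PDZ domains, was below background on the probe set used, at 20.92, 22.29 and 22.32. Another of its probe sets, named here after its values were seen, read 19.22, 22.99 and 23.30 and so crossed background between days 6 and 14. The remaining pair, below background on every array, gave log2 differences of 2.58 and -0.11 between days 6 and 14.

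The receptor chains Il17rd, Il10rb, Il13ra1 and Il18rap were 2-fold apart. Il17rd, also known as Sef, an inhibitor of receptor tyrosine kinase signalling to ERK, read 25.14, 26.04 and 26.94. Each value was higher than the one before, and day 28 was 3.48-fold higher than day 6. Its second probe set lay near background, at 22.65, 22.76 and 23.02, and gave a log2 difference of 0.38 where the first gave 1.80. Il10rb, a shared chain of the receptors for IL-10, IL-22 and the lambda interferons, read 26.90, 28.12 and 27.60. Day 14 was 2.32-fold higher than day 6, and the second probe set gave a log2 difference of 1.06 beside 1.21. Il13ra1, which pairs with Il4ra to bind IL-4 and IL-13, read 24.92, 24.98 and 25.92, and day 28 was 2.01-fold higher than day 6. The other 3 probe sets above background gave 0.31 to 0.96 in the same direction. Il18rap, the signalling chain of the IL-18 receptor, read 23.90, 22.29 and 23.19, at least 2.40-fold lower on day 14 than on day 6. Its partner chain Il18r1 was below background on every array, at 20.30, 20.06 and 20.00.

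Other chains were read beside their partners. Il10ra, which completes the IL-10 receptor, was below background at 22.51, 22.25 and 22.63, whereas Il10rb was above it. Il4ra read 25.32, 25.56 and 25.65. One of its 3 probe sets gave a log2 difference of 1.09 between days 6 and 28, while the others gave 0.33 and 0.22. Il1rap, the accessory chain of the IL-1 and IL-33 receptors, read 28.02, 28.23 and 27.86, while Il1r1, the IL-1 binding chain, was below background at 19.81, 19.73 and 19.73. Il6st, or gp130, the signal chain shared by IL-6, IL-11 and LIF, read 27.28, 27.75 and 27.49. Its 4 probe sets gave log2 differences from -0.60 to 0.38 between days 6 and 28, so they did not share a direction. Il6ra, the IL-6 binding chain, read 24.14, 23.99 and 24.17. Il17ra and Il17rc, which form the receptor of IL-17A, were both above background. Il17ra read 24.75, 24.50 and 23.86, and day 28 was 1.86-fold lower than day 6. Il17rc read 26.21, 26.57 and 25.97.

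The remaining chains lay nearer to background. Il20rb, a chain of the IL-20 receptors, read 23.11, 22.41 and 22.15 and was above background on day 6 only. Il3ra, which binds IL-3, read 22.88, 22.74 and 21.96, below background on day 28. Il17re, the IL-17C receptor chain, read 24.11, 24.00 and 23.64. Il15ra, which presents IL-15, read 23.41, 23.21 and 23.39, and the decoy receptors Il13ra2 and Il22ra2 read 23.09, 22.67 and 23.03 and 23.09, 22.91 and 22.92. Il20ra read 23.61, 23.71 and 23.28. None was 2-fold apart. The 19 chains below background on every array included the lymphocyte receptor genes Il2ra, Il2rb, Il7r, Il9r and Il21r.

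**Figure D4:**
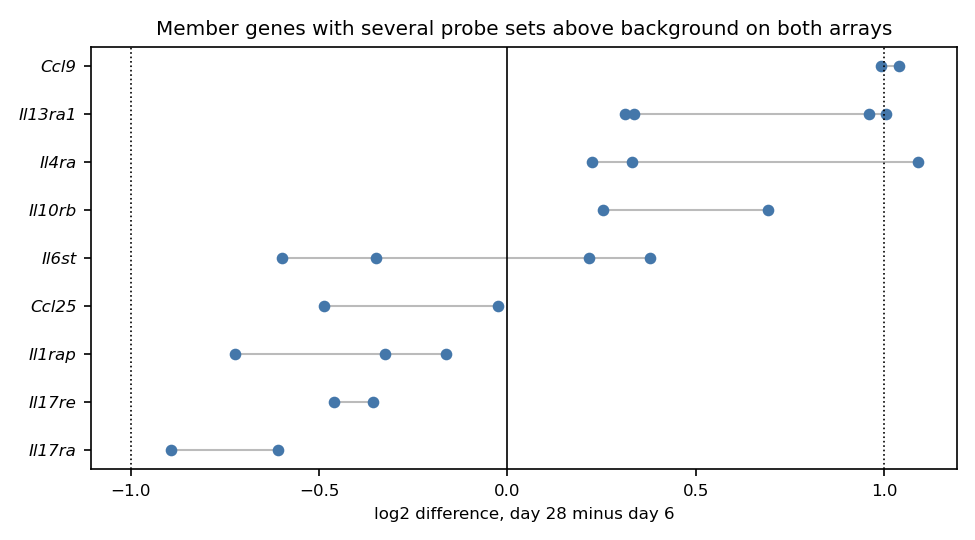
Log2 difference of day 28 minus day 6 (x axis) for the 9 genes of the group with several probe sets above background on both arrays, one point per probe set, with dotted lines at 2-fold. The probe sets of Ccl9 lie close together near 1, those of Il4ra spread from 0.22 to 1.09, and those of Il6st lie on both sides of 0.

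Genes 2-fold apart were counted over all members that entered each comparison. Values were counted as measured, also below background. Between days 6 and 14, 43 genes lay above background on at least 1 of the 2 arrays. Of these, 5 (11.6%) were 2-fold higher on day 14, beside 5.48% of all genes, and 3 (6.98%) were lower, beside 3.92%. The higher ones were Ccl3, Ccl6, Cxcl15, Cxcr3 and Il10rb, and the lower ones Il11, Il18rap and Il34. Ccl3, Ccl6, Cxcl15, Il18rap and Il34 entered only through the array on which they were high, and entry of that kind favours a difference. Ccl20, Ccl28, Ccr10 and Il20rb also entered so and were not 2-fold apart. Of the 34 genes above background on both arrays, 2 were higher, beside 4.38% of all such genes, and 1 was lower, beside 3.34%.

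Between days 14 and 28, 43 genes entered. On day 28, 3 (6.98%) were 2-fold higher, beside 2.25% of all genes, and 2 (4.65%) were lower, beside 1.44%. The higher ones were Il11, Il33 and Il34, and the lower ones Ccl6 and Cxcl15. Il34, Ccl6 and Cxcl15 entered only through the array on which they were high. Against background, Il34 was at least 1.32-fold higher, and Ccl6 and Cxcl15 at least 1.38-fold and 2.08-fold lower. Ccl17, Ccr10, Cxcl1, Il18rap and Il3ra also entered so and were not 2-fold apart. With both arrays above background, 2 of 35 were higher, beside 1.46%, and 0 lower, beside 1.06%. Between days 6 and 28, 41 genes entered. On day 28, 4 (9.76%) were higher, beside 6.64% of all genes, and 1 (2.44%) was lower, beside 4.0%. The higher ones were Ccl17, Il13ra1, Il17rd and Il33, and the lower one Il34. Ccl17 entered only through day 28, at least 1.57-fold higher. Ccl3, Ccl20, Ccl28, Cxcl1, Il3ra and Il20rb also entered through 1 array and were not 2-fold apart. With both arrays above background, 3 of 34 were higher, beside 4.88%, and 1 was lower, beside 3.56%.

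The median log2 differences of the genes that entered were 0.07, -0.01 and 0.03 in the order just given, beside -0.03, 0.04 and 0.02 over all genes. In all, 12 of the 44 genes (27.3%) were 2-fold apart in some comparison, beside 15.3% of all genes above background on at least 1 array. The other 32 stayed between -0.96 and 0.99. Among the 12, Ccl3, Ccl6, Ccl17, Cxcl15, Il18rap and Il34 had a 2-fold difference that entered only through the array on which they were high. Entry of that kind favours a difference, and this share was not counted with both arrays required above background. The comparisons share arrays, so they are not independent. At the edge of 2-fold, Cxcr3 and Il13ra1 gave differences of 1.01 each and Il34 just reached 2-fold between days 6 and 28, while Ccl9 and Ccl4 gave 0.99 and 0.98. Of 18 differences counted as 2-fold, 3 belonged to genes with other probe sets above background. All of those other probe sets had the same direction, and in 1 case also reached 2-fold.

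Genes of the same signalling routes that carry other names were counted from a list of 80, of which 74 were matched and 61 lay above background on at least 1 array. Between days 6 and 14, 4 of 60 were 2-fold higher and 2 lower. Between days 14 and 28, 1 of 61 was higher and 1 lower. Between days 6 and 28, 5 of 60 were higher and 2 lower. The shares over all genes are those given above for the chemokine and interleukin genes. None of 10 IL-1 and Toll signalling genes and none of 11 NF-kB genes was 2-fold apart in any comparison, beside 15.3% of all genes above background. The classes are small, and whether they differ from that share was not tested. The adaptor gene Myd88 read 25.30, 25.33 and 25.33. Rela, an NF-kB subunit, read 27.09, 27.22 and 27.15. The inhibitor gene Nfkbia, itself a target of NF-kB, read 27.53, 27.89 and 27.99.

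In the JAK-STAT class, 1 of 17 genes was 2-fold apart in some comparison, beside 15.3% of all genes above background. Jak2, a kinase bound to many cytokine receptors, read 26.15, 27.02 and 27.73, each value above the one before, and its day 28 difference was 1.58. Stat3, activated by gp130, read 26.81, 27.28 and 27.29, and its feedback inhibitor Socs3 26.52, 27.44 and 27.45. Of 12 gp130 and haematopoietin genes above background, Cntfr, Csf1, Csf2ra, Ctf1, Lifr and Tslp were 2-fold apart in some comparison, beside the same 15.3%. Lifr, which pairs with Il6st, read 25.59, 27.24 and 26.91, 3.14-fold higher on day 14 than on day 6. Cntfr, another receptor that recruits Il6st, read 21.64, 24.94 and 24.78, from below background to at least 4.53-fold higher on day 14. Csf2ra was at least 1.91-fold higher on day 14 than on day 6. Ctf1, a gp130 ligand, was at least 1.15-fold lower on day 14 than on day 6 and near background throughout.

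Csf1, the other ligand of the Il34 receptor, read 27.90, 26.69 and 26.82, 2.30-fold lower on day 14 and 2.11-fold lower on day 28 than on day 6. The receptor gene Csf1r read 24.36, 24.32 and 24.04. Tslp, an epithelial cytokine that uses an IL-7 receptor chain, read 24.78, 24.98 and 23.75, 2.33-fold lower on day 28 than on day 14. Of 9 other chemokine system genes above background, Cx3cl1 and Pf4 were 2-fold apart in some comparison, and of 2 C/EBP factors, Cebpd. The share over all genes above background was 15.3%. Cx3cl1, or fractalkine, read 25.63, 26.44 and 26.99, 2.57-fold higher on day 28 than on day 6. Pf4, a platelet chemokine, read 22.42, 23.18 and 24.06, at least 2.46-fold higher on day 28. Cx3cr1, the receptor of Cx3cl1, was below background on every array. Ackr3, a scavenging receptor of Cxcl12, read 23.94, 24.35 and 24.53. Cebpd, a transcription factor of cytokine responses, read 26.90, 28.22 and 27.82, 2.49-fold higher on day 14 than on day 6, while Cebpb read 27.76, 27.56 and 28.35.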

How the data were processed

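Per the labels' protocols, biotin-labelled cRNA was made from column-purified total RNA and hybridised to Affymetrix arrays. The deposited table held 1 value for each of 45101 probe sets on 3 arrays. The authors' values appear to be log2, a base inferred from the values. How probes were summarized is not stated there. The sorted columns were identical (largest difference 0.0), so the deposited values had been quantile normalized, and each difference is relative to the other genes. The median was 22.91 on each array, so a constant or other scaling had been applied.

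By the platform annotation, 34958 probe sets had 1 gene, 932 had several and 9211 had no entry. For each gene the probe set with the highest mean was used. A gene entered a comparison when above background on at least 1 of the 2 arrays, and counted as apart at a log2 difference of 1. Where the dimmer array lay below background, the fold is a lower bound against it. Of 70 silent genes listed, 62 were matched. Genes described in full were those 2-fold apart in any comparison and the 10 with the highest means. The members and lists were chosen with earlier results of these data known. Promoter sequences and gene order came from RefSeq tables of GRCm38.p6. Calculations used Python 3.11.15, numpy 2.4.6, pandas 2.3.3 and matplotlib 3.10.9, and were tested on simulated data.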

Additional observations from a re-analysis of the deposited data

How the results depend on the processing

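The number of arrays, 1 per time, limits every value. No paired analysis was possible because each time point has 1 array. No second list of silent genes was run, since the listed one was in use. All 24 alternative medians of the group differed from the main ones by less than the SD between probe sets. That SD is far larger than the medians, so the bound is loose, and some signs changed. The median between days 6 and 14 went from 0.07 to -0.05 at the 75th percentile background. Between days 6 and 28 it went from 0.03 to -0.05 with equal hybridization controls. No 2-fold difference of a named gene changed sign in the alternatives run, in the comparisons that the gene entered. For genes with 1 probe set these were only raised dim values and the shift to equal hybridization controls. The shift is at most 0.08, and raising dim values mainly shrinks a difference. An unchanged sign was thus nearly fixed in advance for them and shows little. Ccl6 and Cxcl15, below background on days 6 and 28, did not enter that comparison, and with dim values raised to background their differences went from 1.91 and 2.45 to -0.08 each. Between days 6 and 28, Il13ra1 fell short of 2-fold when its probe sets were averaged (0.49) and when arrays were shifted to equal hybridization controls (0.93). That shift also left Cxcr3 short of 2-fold between days 6 and 14 (0.93) and Ccl17 between days 6 and 28 (0.99).

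At the 75th percentile background, 58 genes lay above it on day 6 and 60 on day 28, and 9 were apart between days 6 and 28. With dim values raised to background, 5 genes were apart between days 6 and 14 and 3 between days 14 and 28. With both arrays required above background, an alternative chosen after seeing the data, these were 3 and 2. By probe set, 9 were apart between days 6 and 28. At 1.5-fold, 14 genes were apart in the first step (day 6 to 14), 16 in the second (day 14 to 28) and 14 over the whole course. For the signalling list the 1.5-fold counts were 13, 6 and 16. With both arrays above background, 3 of that list were apart between days 6 and 14 and 1 between days 14 and 28. For the latter comparison it was also 1 at the 95th percentile background and with dim values raised. Apart from the setting with both arrays above background, shares over all genes were not counted under these settings. Those counts therefore cannot be set against the array as a whole.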
